A study of Caenorhabditis elegans with 3 samples.

Results

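The nlp genes of Caenorhabditis elegans are described here across 3 libraries of whole animals at the L4 larval stage. Members were all genes whose locus name in the deposited tables begins with nlp, which gave 44 genes of 45343 features. They were split by name into nlp-27 to nlp-34, 8 genes known as antimicrobial peptide genes of the epidermis, and the other 36, most of which are known from neurons. The libraries came from the wild-type strain N2, from ZG24, which carries ahr-1(ia03), and from CZ2485, which carries ahr-1(ju145), with 1 library per strain. The gene ahr-1 encodes the worm aryl hydrocarbon receptor, a transcription factor known for its part in the fate of several neuron types. Cultures were synchronised by treating gravid adults with hypochlorite and growing the eggs to L4. No drug or other treatment is named in the labels. The series design compares each mutant singly with wild-type, to find genes that differ in level.

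The nlp genes encode neuropeptide-like proteins, secreted precursors that are cut into short peptides and are defined as the peptide genes that belong neither to the FMRFamide-related nor to the insulin-like family. Most act as signals from neurons, released from dense core vesicles and read by G protein-coupled receptors. A subset rich in glycine and tyrosine is made by the epidermis instead, and nlp-29, its best known gene, is induced by fungal infection and by wounding.

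With 1 library per strain no difference below has a replicate error, and none was tested. Levels are FPKM, fragment counts divided by transcript length and by library size. Ratios are log2 of FPKM + 1 in a mutant over FPKM + 1 in N2, which understates the differences of low genes, and 2-fold below always means at least that much on this scale. A gene counts as measured when the authors gave it status OK and its FPKM was at least 1 in 1 or more of the libraries compared. In both mutants 40 of the 44 nlp genes were measured. The other 4 were nlp-39, listed at 0 in all 3 libraries, nlp-22 and nlp-32, which stayed under an FPKM of 1 in all 3, and nlp-36, which had status FAIL in both tables. Of the measured genes, nlp-2 reached the floor in the comparison of ia03 with wild-type only through wild-type, where its FPKM was 1.10 against 0.785 in ia03.

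The libraries set the frame for these values. Relative depth was read from the commonest ratio to wild-type among low FPKM values. It was 1.08 for ju145 with limits on low values from 0.03 to 0.3. For ia03 it was not settled, at 1.23 with limits of 0.03 and 0.05 (22 of 136 features in the commonest bin at 0.05) and 0.616 with limits of 0.1 to 0.3. The median log2 ratio of all measured features was -0.02 in ia03 and -0.18 in ju145, so that a ju145 value near -0.18 lies at the centre of its library. Expression of ahr-1 itself was an FPKM of 0.664 in N2, 0.699 in ia03 and 0.569 in ju145, too low to check the labels. Markers of neurons, epidermis, intestine and body wall muscle were all present. The 8 pan-neuronal markers ranged in log2 ratio from -0.11 to 0.27 in ia03 and from -0.31 to 0.12 in ju145. Sperm and yolk markers were below wild-type in both mutants, with medians of -0.64 and -0.92 in ia03 and -0.43 and -0.44 in ju145. The epidermal collagen gene dpy-7, whose transcript is known to cycle with the moults, had an FPKM of 54.5 in N2, 161 in ia03 and 111 in ju145, with status FAIL in both tables. Whether the animals were at the same point of L4 was not tested, nor was the part of this in any value below. In whole animals, fewer cells of a type and less RNA per cell cannot be told apart.

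Levels of nlp transcripts ran from an FPKM of 0 to 2138. The most abundant were nlp-33, an epidermal antimicrobial gene, and nlp-24, a glycine-rich relative outside that group whose product is known as an opioid-like peptide in feeding. The FPKM of nlp-33 was 1839 in N2, 1619.6 in ia03 and 2138 in ju145, and in wild-type it ranked 159 of all features. The FPKM of nlp-24 was 1571 in N2, 1383 in ia03 and 2084 in ju145. Both were lowest in ia03 and highest in ju145. They were followed in wild-type by nlp-36 at 909, nlp-26 at 537, nlp-28 at 393, nlp-40 at 355, nlp-27 at 355, nlp-29 at 323, nlp-20 at 145.4 and nlp-34 at 144. These 10 genes include 5 of the 8 epidermal ones.

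The epidermal group was small in number and high in level. Its 8 genes summed to an FPKM of 3221 in N2, 2848 in ia03 and 3513 in ju145, and the other 36 genes summed to 4236, 3572 and 4808. The median FPKM in N2 was 233 among the epidermal genes and 17.7 among the others. Among the others it was 17.2 in ia03 and 18.3 in ju145. As a share of all summed FPKM, the 44 genes made up 0.418% in N2, 0.422% in ia03 and 0.486% in ju145. The epidermal genes made up 0.181%, 0.187% and 0.205%, and the others 0.238%, 0.235% and 0.281%. Thus the epidermal sum was lower in ia03 than in N2, while its share was not.

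**Figure D1:**
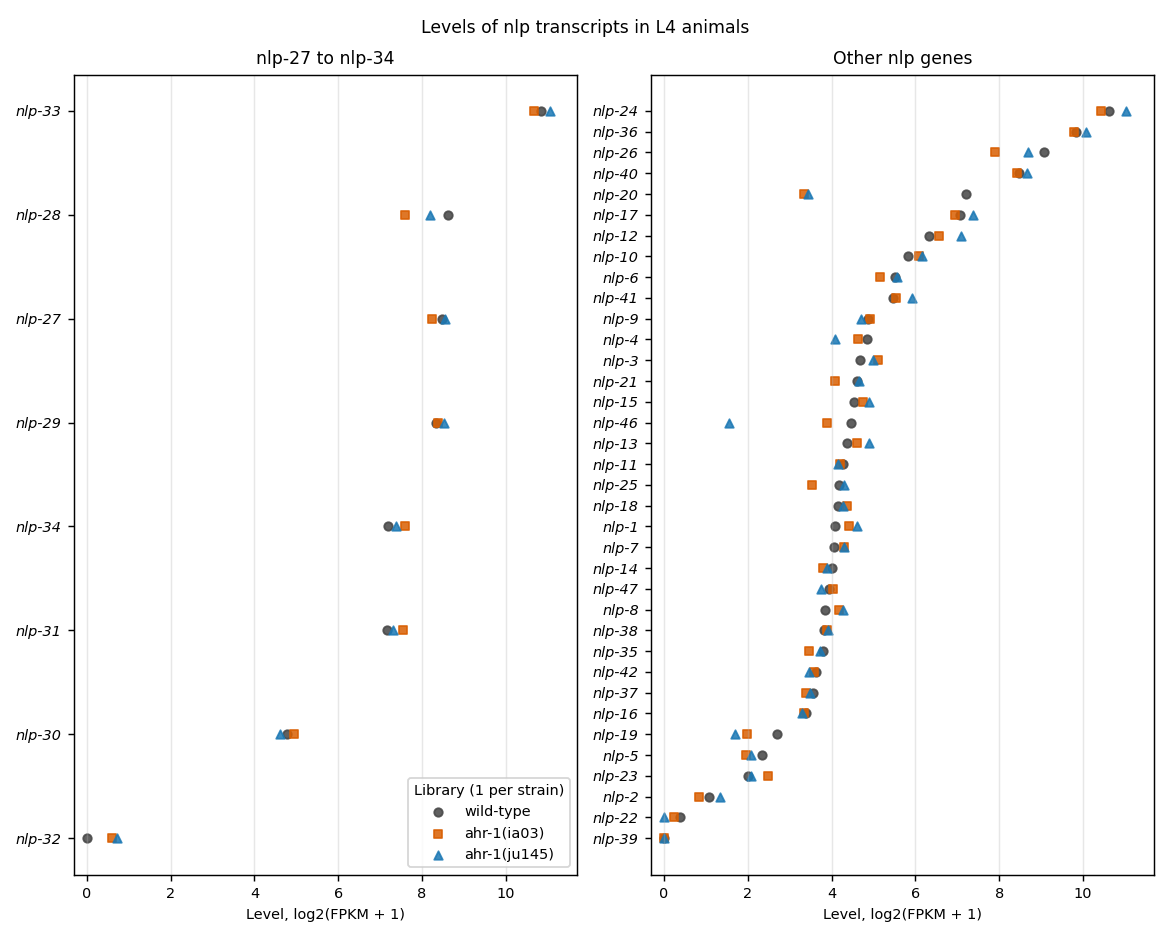
Level of each nlp gene as log2(FPKM + 1) in the 3 libraries, with nlp-27 to nlp-34 on the left and the other nlp genes on the right, ordered by wild-type level. The libraries lie close together for most genes, while nlp-20 was far lower in both mutants and nlp-46 in ju145.

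Among the epidermal antimicrobial genes, transcript levels in the mutants mostly stayed close to wild-type, and nlp-28 in ia03 was the 1 gene of the 7 measured that differed 2-fold. Lower by 2-fold were 1 of 7 in ia03 and 0 of 7 in ju145, where 4.26% and 3.54% of all measured features were, and 0 of 7 were higher in either mutant, where 2.52% and 1.36% of all measured features were. The median log2 ratio of the 7 was 0.03 in ia03 and 0.16 in ju145, beside -0.02 and -0.18 over all features. In ju145, 6 of the 7 lay above the median of all features.

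Of these genes, 6 form a cluster of 10.94 kb on chromosome V, from 3978814 to 3989755 as the files number it (no source used here names their genome build). No other feature of the tables lies in that span. In chromosome order they are nlp-34, nlp-31, nlp-30, nlp-29, nlp-28 and nlp-27, and nlp-34 is read from the minus strand and the other 5 from the plus strand in the reference annotation. The left end was above wild-type in both mutants. The FPKM of nlp-34 was 144 in N2, 191 in ia03 and 164 in ju145. That of nlp-31 was 141, 184 and 157 in the same order of libraries. Both genes were thus highest in ia03, with log2 ratios of 0.41 and 0.38 there and 0.19 and 0.16 in ju145.

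In the middle of the cluster, nlp-30 was the least abundant gene, with an FPKM of 26.3 in N2, 29.7 in ia03 and 23.3 in ju145. The fungus-induced gene nlp-29 had 323 in N2, 331 in ia03 and 364 in ju145. Its log2 ratios were 0.03 and 0.17, and the second was 0.37 and 0.41 when the libraries were rescaled by their median ratio and upper quartile.

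The right end was lowest in ia03. The FPKM of nlp-28 was 393 in N2, 193 in ia03 and 289 in ju145, with log2 ratios of -1.02 and -0.44. That of nlp-27 was 355, 299 and 376, with log2 ratios of -0.25 and 0.08. In the authors' deposited table for ia03, nlp-28 had a q-value of 0.00917, and their table for ju145 gave it 0.226. The value of nlp-28 in ia03 lay just past the 2-fold limit, and fell short of it at -0.97 when the libraries were rescaled by their upper quartiles. From the left end to the right, the ia03 ratios ran 0.41, 0.38, 0.17, 0.03, -1.02 and -0.25, an order that rests on 1 library per strain and was not tested.

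**Figure D2:**
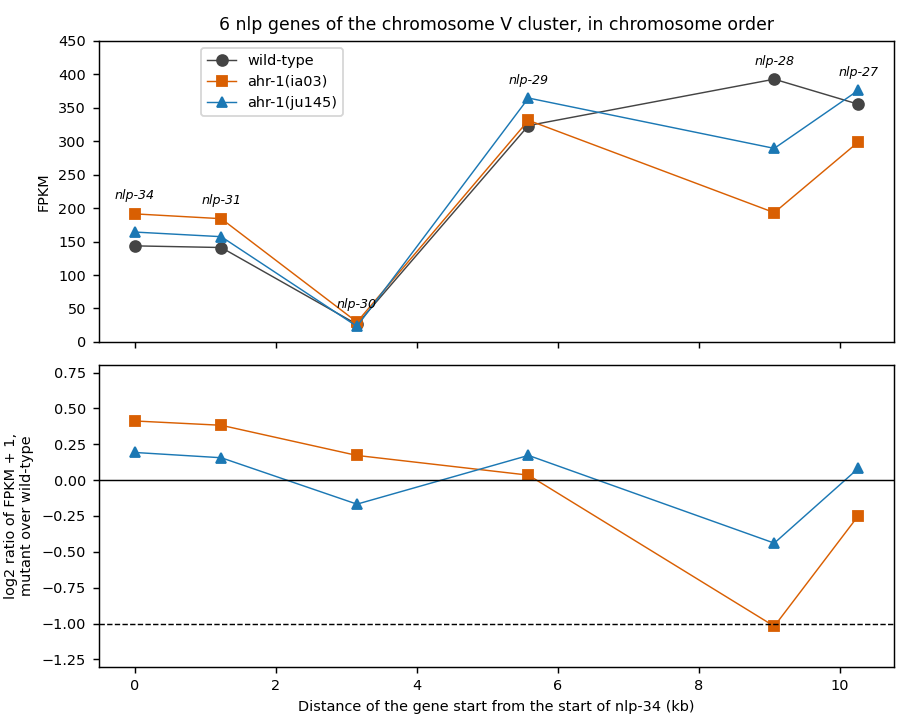
FPKM (top) and log2 ratio of FPKM + 1 to wild-type (bottom) of the 6 nlp genes of the chromosome V cluster, by distance of each gene start from that of nlp-34 in kb. The left-hand genes nlp-34 and nlp-31 were highest in ia03, and nlp-28 was lowest there, at the dashed line that marks 2-fold.

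The remaining epidermal genes lie apart. The gene nlp-33, at chromosome V, 11147326 to 11147792, gave log2 ratios of -0.18 for ia03 and 0.22 for ju145. On chromosome III, nlp-32 was listed at 0 in N2, with an FPKM of 0.522 in ia03 and 0.645 in ju145, too low for a ratio. In all 8, the reference annotation gives 2 exons, and their exon length runs from 264 to 714 nt, with a median of 349 nt.

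The caenacins, a second family of epidermal antimicrobial peptide genes, were looked at beside them. Of 11 cnc genes 8 were measured, 1 was at least 2-fold lower in ia03 and 0 in ju145, and 0 were 2-fold higher in either. Over all measured features 4.26% and 3.54% were lower, and 2.52% and 1.36% higher. The lower one, cnc-11, stood at 2.90 in N2, 0.842 in ia03 and 1.61 in ju145, and in ia03 it reached the floor only through wild-type, where it was high. The most abundant, cnc-8, had 1120.3, 1047 and 1291, and cnc-10 had 163, 130 and 174, in both cases lowest in ia03 and highest in ju145. The caenacin median was -0.35 in ia03 and 0.07 in ju145. The 13 genes of the epidermal immune pathway upstream of nlp-29, from the receptor gene dcar-1 through the p38 kinase gene pmk-1 to the STAT-like gene sta-2, held 0 genes with a 2-fold difference in either mutant, beside the same shares of all features. Their log2 ratios ran from -0.20 to 0.35 in ia03 and from -0.29 to 0.07 in ju145. The FPKM of sek-1, a kinase gene upstream of pmk-1, was 38.9 in N2, 37.9 in ia03 and 35.1 in ju145, while that of dcar-1 was 38.2, 39.9 and 39.8. Of 6 epidermal markers 5 were measured, with log2 ratios from -0.08 to 0.58 in ia03 and from -0.19 to 0.13 in ju145.

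Among the other nlp genes, a few lay well below wild-type while most were within 2-fold of it. Of the 33 measured, 2 were at least 2-fold lower in ia03, nlp-20 and nlp-26, and 3 in ju145, nlp-20, nlp-46 and nlp-19. None of the 33 was 2-fold higher in either mutant. Over all measured features 4.26% were 2-fold lower in ia03 and 3.54% in ju145, while 2.52% and 1.36% were higher. The medians were -0.06 in ia03 and 0.05 in ju145, where 26 of the 33 lay above the median of all features, beside 50.0% of all features by construction.

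The gene with the largest difference was nlp-20, on chromosome IV at 7642046 to 7643114. Its FPKM was 145.4 in N2, 9.10 in ia03 and 9.88 in ju145, so that wild-type was high and both mutants were low and nearly equal. Wild-type was 15.97-fold above ia03 and 14.7-fold above ju145 in FPKM, and the log2 ratios were -3.86 and -3.75. It was the 1 nlp gene of 40 that was at least 2-fold lower in both mutants, where 2.15% of 14401 features measured in both comparisons were, and 0 of 40 were higher in both, where 0.424% were. Both comparisons share the wild-type library. In rank among all features nlp-20 went from 1369 in N2 to 9616 in ia03 and 8897 in ju145. Among all measured features, its ratio was the 87th lowest of 14783 in ia03 and the 56th lowest of 14686 in ju145. Both of the authors' deposited tables list its q-value as 0. No other feature of the tables overlaps it. The 10 nearest measured features, 5 on each side, had a median log2 ratio of 0.02 in ia03, against -0.20 in ju145, and 0 of them differed 2-fold in either. Around the other 4 genes, 2 of the 10 nearest differed 2-fold in ia03 and 1 in ju145 for both nlp-26 and nlp-46, 1 did in ju145 for nlp-19, and 0 did for nlp-28. Near nlp-26 the log2 ratios ran from -6.88 to 0.58 in ia03 and from -2.18 to 0.76 in ju145. Near nlp-46 they ran from -5.04 to 1.04 in ia03 and from -5.04 to 0.38 in ju145. Over all measured features 4.26% were 2-fold lower in ia03 and 3.54% in ju145, while 2.52% and 1.36% were higher.

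In ju145 the largest difference after nlp-20 was that of nlp-46, on chromosome V at 12503780 to 12506241. Its FPKM was 21.1 in N2, 13.9 in ia03 and 1.92 in ju145, with log2 ratios of -0.57 and -2.92. Here wild-type and ia03 were both high and ju145 was low, and nlp-46 was the 1 nlp gene with a 2-fold difference between the mutants, at a log2 ratio of 2.35 of ia03 over ju145. Of 14384 features compared between the mutants, 1.28% had their 2-fold higher value in ia03 and 1.38% in ju145. The authors' deposited table for ju145 gave nlp-46 a q-value of 0.152, above the 0.05 of their criterion. Its locus in the files overlaps T28H10.1, which had an FPKM of 3.30, 3.28 and 3.23, and no source used here says whether reads were counted by strand.

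The smallest of these differences in ju145 was that of nlp-19, on chromosome X. Its FPKM was 5.47 in N2, 2.97 in ia03 and 2.23 in ju145, with log2 ratios of -0.70 and -1.005. Wild-type was the highest library, but the level was low in all 3 and the ju145 value sat at the limit. It fell inside 2-fold, at -0.54, with a pseudocount of 5, and at -0.86 and -0.83 when the libraries were rescaled. The authors' deposited table gave a q-value of 0.284 for ju145.

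Lower in ia03 by 2-fold was nlp-26, which lies on chromosome V at 19613498 to 19614491 and belongs by sequence to the glycine-rich peptide genes. Its FPKM was 537 in N2, 237 in ia03 and 411 in ju145, with log2 ratios of -1.18 and -0.38. The authors' deposited tables gave q-values of 0.00168 for ia03 and 0.303 for ju145. Its neighbour nlp-25 had 17.1 in N2, 10.5 in ia03 and 18.5 in ju145, with log2 ratios of -0.65 and 0.10. The glycine-rich genes nlp-24, nlp-25 and nlp-26, outside the group nlp-27 to nlp-34, were each lowest in ia03, and nlp-26 alone of the 3 differed 2-fold.

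The 5 genes with a 2-fold difference share a short transcript. Each has 335 to 477 nt of exon in the reference, in a length class where low ratios were frequent in both mutant libraries. Among all measured features with at least 300 and under 500 nt of exon, 13.1% were at least 2-fold lower in ia03 and 9.20% in ju145, and among the nlp genes of that length 3 of 15 were so in each mutant. In the reference the nlp genes span 240 to 1668 nt of exon. Over protein-coding genes of that range, 3.78% were 2-fold lower in ia03 and 3.06% in ju145, while 2.05% and 0.710% were higher. Its ends are nlp-39, which was not measured, and nlp-25, whose locus in the files, 19607481 to 19608380, is shorter than 1668 nt. Of the 24 measured nlp genes with at least 500 nt, 0 were 2-fold lower in either, where 1.56% of all measured features of that length were in ia03 and 1.54% in ju145. Some genes that carry an nlp name in the reference alone were 2-fold lower at such lengths too. These were nlp-56 in ia03, with 620 nt, and nlp-58 in ju145, with 591 nt. Shorter ones were nlp-70 in ia03, with 414 nt, and nlp-66 and nlp-78 in ju145, with 495 and 322 nt. The reference gives nlp-61, also lower in ia03, 533 nt, but its locus in the files, 7627601 to 7627800, is shorter than that. Whether the length had a part in the 5 differences was not tested.

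**Figure D3:**
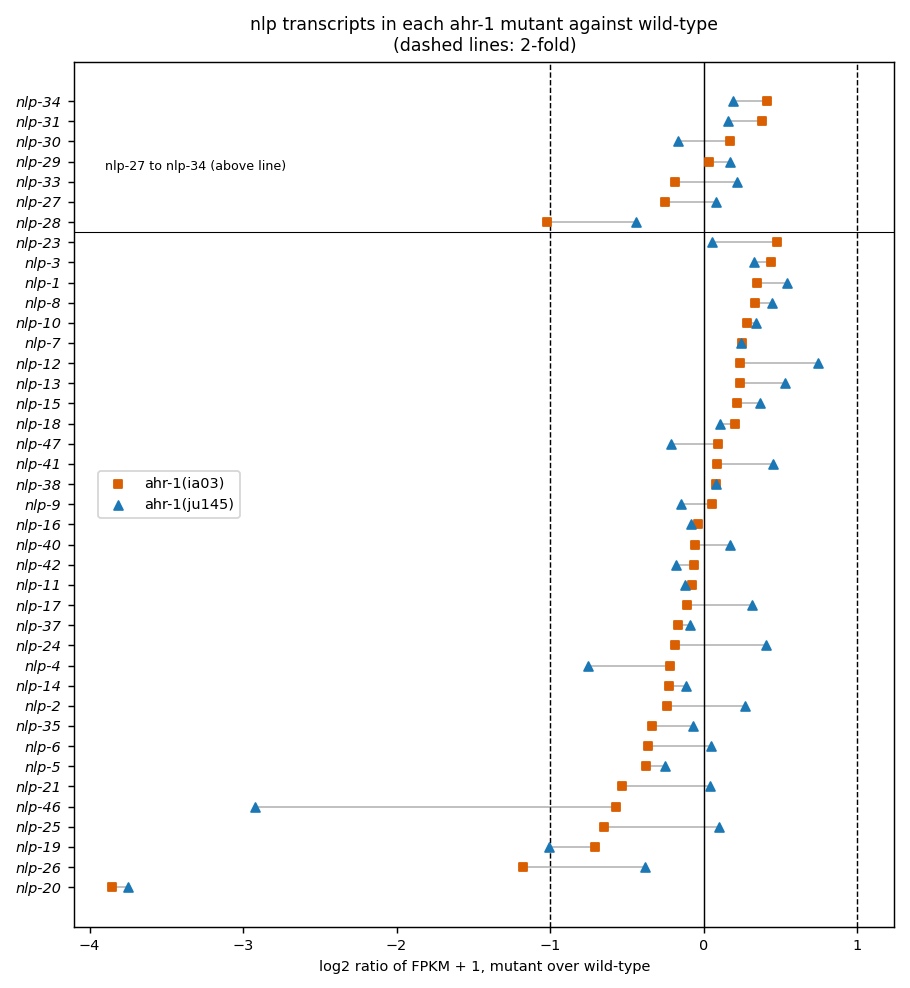
log2 ratio of FPKM + 1 over wild-type for the 40 measured nlp genes, with ia03 as squares and ju145 as triangles, nlp-27 to nlp-34 above the horizontal line and the others below it. Most pairs lie within 2-fold (dashed lines), nlp-20 lies near -3.8 in both mutants, and nlp-46 stands apart in ju145.

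Of the nlp genes with known roles in neurons, nlp-12 lay furthest above wild-type. For peptides of conserved families, nlp-12, the cholecystokinin-like gene of the stretch-sensing neuron DVA, had an FPKM of 79.5 in N2, 94.0 in ia03 and 134 in ju145. Its log2 ratio in ju145, 0.75, was the highest of any measured nlp gene in either mutant, and the authors' deposited table gave it a q-value of 0.0243. Rescaling of the libraries by their median ratio or upper quartile put it at 0.94 and 0.99, just short of 2-fold. Its locus overlaps emr-1, a nuclear envelope gene with an FPKM of 71.1, 78.5 and 78.3, so its reads are uncertain. Pigment dispersing factor 2, encoded by nlp-37, had 10.8, 9.54 and 10.1. The gonadotropin-releasing hormone-like gene nlp-47 had 14.4, 15.4 and 12.3, and the myoinhibitory peptide gene nlp-38 had 13.1, 13.9 and 13.96. These last 3 varied by at most 0.31 in log2 between any of the libraries. The neuromedin-like gene nlp-44 was not analysed here.

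Genes for sleep-like quiescence were also near wild-type where they could be read. The FPKM of nlp-8, a gene of the sleep neuron ALA, was 13.3 in N2, 17.05 in ia03 and 18.4 in ju145. That of nlp-14, which acts with it, was 15.1, 12.8 and 13.9. The somnogen gene nlp-22, whose transcript is known to cycle over larval development, stood at 0.309, 0.184 and 0. Its locus in the files is a stretch of chromosome X shared with nlp-2 and nlp-23, among others. There nlp-23 had 3.03, 4.61 and 3.19, and nlp-2 had 1.10, 0.785 and 1.53. All 3 were thus near or under the floor, and their reads cannot be assigned with certainty.

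The peptide of the gut pacemaker, encoded by nlp-40 and secreted by the intestine to time defecation, was abundant and level. Its FPKM was 355 in N2, 342 in ia03 and 401 in ju145, with log2 ratios of -0.06 and 0.17. Of the genes linked to egg laying, nlp-3, a gene of the serotonergic neurons, had 24.4 in N2, 33.4 in ia03 and 30.8 in ju145, and nlp-7 had 15.7, 18.8 and 18.7. The odour-adaptation gene nlp-1 had 15.8, 20.4 and 23.5. All 3 were above wild-type in both mutants, by log2 ratios of 0.24 to 0.55.

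Further genes of the neuronal lists lay on either side of wild-type. The FPKM of nlp-10 was 55.1 in N2, 67.4 in ia03 and 70.1 in ju145, that of nlp-9 was 27.97, 29.04 and 25.2, and that of nlp-18 was 16.9, 19.5 and 18.2. That of nlp-21 was 23.5 in N2, 15.97 in ia03 and 24.2 in ju145, low in ia03 alone. In ju145 the gene closest to the limit without passing it was nlp-4, with 27.6 in N2, 23.6 in ia03 and 15.9 in ju145, a log2 ratio of -0.76. The gene nlp-36 had 909, 876 and 1069 and could not be compared, as its status was FAIL. Its locus overlaps dars-1, which had an FPKM of 203 in N2. The rest of the measured genes had log2 ratios between -0.38 and 0.53 in both mutants.

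Across the 40 measured genes the libraries differed most often by less than 1.5-fold between the highest and the lowest, which held for 6 of the 7 epidermal and 25 of the 33 other genes. The share of all measured features within that range was not computed, so these counts show nothing particular to nlp genes. In both mutants 13 of the 40 were below wild-type and 15 above, where 47.8% and 21.4% of 14401 features were. Another 9 were below in ia03 and above in ju145 and 3 the reverse, where 5.94% and 24.9% of those features were. In ia03 22 of 40 were below wild-type and 18 above, where 52.5% and 47.5% of all measured features were. In ju145 16 of 40 were below and 24 above, where 71.7% and 28.3% of all measured features were. Relative to the median of all features, the median of the 40 was -0.04 in ia03 and 0.27 in ju145, and 18 and 32 of the 40 lay above that median.

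In the authors' deposited tables, of the 42 nlp genes with status OK 3 had a q-value under 0.05 in ia03, nlp-20, nlp-26 and nlp-28, where 5.38% of all features with status OK had. In ju145 2 of 42 had, nlp-20 and nlp-12, where 8.52% of all had. Those q-values rest on 1 library per strain, so they compare libraries and not strains.

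**Figure D4:**
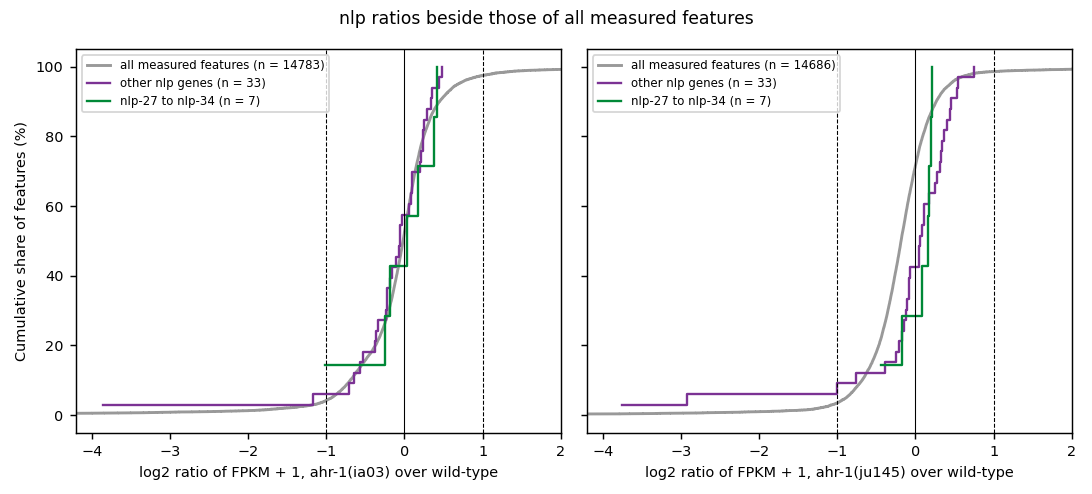
Cumulative share of features by log2 ratio of FPKM + 1 over that of wild-type, with ia03 on the left and ju145 on the right, for all measured features, the 33 other nlp genes and the 7 measured epidermal genes. In ia03 the curves lie together, with medians of -0.02, -0.06 and 0.03, and in ju145 the nlp curves lie to the right of all features through their middle, with medians of 0.05 and 0.16 against -0.18.

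The genes that make, release, break down and receive nlp peptides were listed beside them. Of 16 genes for precursor processing and dense core vesicles, 15 were measured and 0 differed 2-fold in either mutant. Over all measured features 4.26% were 2-fold lower in ia03 and 3.54% in ju145, while 2.52% and 1.36% were higher. The most abundant of the 15 were unc-108, a Rab2 GTPase gene, with 192 in N2, 201 in ia03 and 182 in ju145, and sbt-1, the chaperone gene of the peptide convertase, with 79.4, 79.8 and 72.7. Log2 ratios over the list ran from -0.53 to 0.62 in ia03 and from -0.66 to 0.33 in ju145. The processing list had a median of 0.01 in ia03 and -0.07 in ju145. Of the convertase gene egl-3 the status did not allow a comparison, and its FPKM was 46.2, 48.4 and 52.2.

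For peptide breakdown, of the 4 peptidase genes 4 were measured in ia03 and 3 in ju145, and 0 differed 2-fold. Of all measured features 4.26% were 2-fold lower in ia03 and 3.54% in ju145, while 2.52% and 1.36% were higher. The gene dpt-1 stood at 62.0 in N2, 65.7 in ia03 and 52.5 in ju145, where its status did not allow a comparison. The neprilysin gene nep-2 stood at 27.1, 24.96 and 22.9. Of 9 receptor genes with an nlp ligand, 6 were measured and 0 differed 2-fold, beside the same shares of all features. The pigment dispersing factor receptor gene pdfr-1 had 11.1 in N2, 9.16 in ia03 and 9.40 in ju145. The gene of the receptor for NLP-29, npr-12, had 3.46, 4.21 and 2.89. Receptor transcripts were low in all 3 libraries, and ckr-1, gnrr-1 and nmur-1 stayed under an FPKM of 1 in each.

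**Figure D5:**
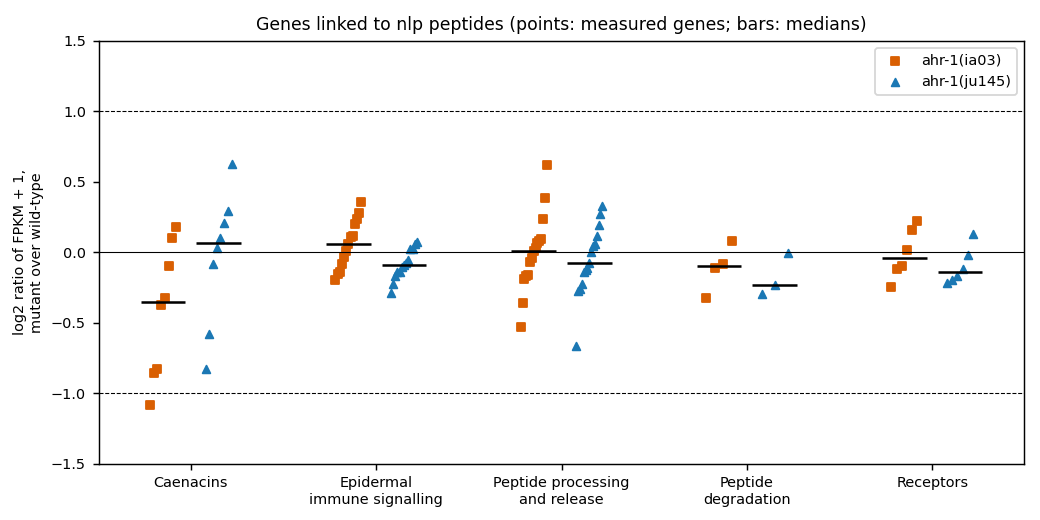
log2 ratio of FPKM + 1 over wild-type for the measured genes of 5 lists linked to nlp peptides, with ia03 as squares, ju145 as triangles and bars for medians. Of the genes shown, cnc-11 in ia03, at -1.08, was the 1 past 2-fold (dashed lines), and it reached the floor there only through wild-type.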

How the data were processed

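RNA from L4 whole animals of 3 strains was sequenced, 1 library per strain, so that no spread between replicates could be had. The submitters' processing notes list Cufflinks (1.3.0), Cuffdiff, TopHat (1.3.1), Bowtie2 (2.0.2), SAMtools (0.1.16) and FastQC without saying what each did. Genome build and annotation: not given in the sources used here. The authors deposited 1 table per mutant with the FPKM of 45343 features in 2 libraries, mutant and wild-type, per the file headers. Both tables held the same wild-type values. The authors also deposited a p-value and a q-value per feature, per the file headers, and a status. FPKM holds no counts, so depth in fragments is unknown and no counting interval could be had. The limit on low values for relative depth was first set at 0.3 and moved to 0.05 after its result was seen, so limits from 0.03 to 0.3 are given. FPKM of short transcripts rests on few fragments and on a steep length correction.

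From these values log2 ratios were computed with a pseudocount of 1, where status was OK and either library reached an FPKM of 1, with a size limit of 2-fold, over the whole table. The rule was checked on simulated data, with 4-fold changes set in features with a wild-type FPKM of at least 10 and the same noise throughout. That check does not cover values near 2-fold, low levels or short transcripts. Members and lists were chosen with earlier results of these data known. Named were members past 2-fold in either mutant, nlp-27 to nlp-34, the listed genes with known roles, the 10 highest in wild-type and the 2 nearest the limit on each side. From linked lists, those past 2-fold were named, or else up to 2 of the highest. Named after their values were seen were cnc-8, cnc-10, egl-3, ckr-1, gnrr-1, nmur-1, nlp-2 and nlp-23. Exon lengths, strands and biotypes came from Ensembl release 115, by sequence name, for 44 of 44 members. Locus starts in the files count from 0 and were raised by 1. Of 45343 features 682 shared an end with a reference transcript, and in 209 the reference start was exactly 1 above, so most coordinates differ from the reference and exon lengths may too. Python 3.11.15, numpy 2.4.6, pandas 2.3.3 and matplotlib 3.10.9 were used. The alternatives were pseudocounts of 0.1 and 5, no floor and a floor of 5, both rescalings, all features whatever their status, limits of 1.5-fold or 4-fold in size, the 2-fold limit with a q-value under 0.05 and, chosen after seeing the data, an exon length of at least 300 nt.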

Additional observations from a re-analysis of the deposited data

How the results depend on the processing

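No paired analysis was possible because each strain had 1 library, and for the same reason no library could be left out. With a size limit of 1.5-fold, 5 nlp genes were lower in ia03 against 3 at 2-fold, 2 were lower in both mutants against 1, and 1 was higher in ju145 against 0. With a limit of 4-fold, 1 was lower in ia03. Shares of all features past the limits of 1.5-fold and 4-fold were not computed, so these counts have none beside them. With a q-value under 0.05 also required in the authors' deposited table, 1 was lower in ju145 against 3. That left nlp-20, as the q-values of nlp-46 and nlp-19 in ju145 were 0.152 and 0.284. Rescaling by the median ratio and by the upper quartile raised ju145 by 0.20 and 0.24 in log2, which moved the median of nlp-27 to nlp-34 in ju145 from 0.16 to 0.35 and 0.39, and that of the other nlp genes from 0.05 to 0.24 and 0.28. It also turned the ju145 values of nlp-9, nlp-11, nlp-14, nlp-16, nlp-30, nlp-35, nlp-37 and nlp-42 from below to above wild-type under both rescalings, and under the upper quartile also those of nlp-47 in ju145 and nlp-16 in ia03, none of them past 2-fold. With at least 300 nt of exon the median of nlp-27 to nlp-34 in ia03 was -0.074 against 0.03, since nlp-34 is shorter. No value past 2-fold changed sign under any alternative run. With the 2-fold limit and the q-value rule left aside, those of nlp-20, nlp-26 and nlp-46 stayed past it under every alternative that gave a value. Those of nlp-28 and nlp-19 did not. Differences of low genes such as nlp-19 are limited by depth, which is unknown in fragments.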

Other observations

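Many peptide genes received nlp names after the tables were made. In RefSeq's list of genes an nlp name is given to 37 further features of the files, of which 33 were measured in each mutant. In ia03 3 of them were at least 2-fold lower, nlp-61, nlp-56 and nlp-70, and 1 was higher, nlp-119, where 4.26% and 2.52% of all measured features were. In ju145 3 were lower, nlp-78, nlp-66 and nlp-58, where 3.54% of all features were, and 0 were higher, where 1.36% were. None of the 33 was 2-fold lower in both mutants, where 2.15% of features measured in both were, or higher in both, where 0.424% were. The median log2 ratio of the 33 was -0.08 in ia03 and 0.30 in ju145, and 26 of 33 lay above the median of all features in ju145.

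The most abundant of these, nlp-61 on chromosome X, had an FPKM of 484 in N2, 165 in ia03 and 430 in ju145, low in ia03 alone. That of nlp-56 was 13.96, 4.86 and 11.8, and that of nlp-70 was 7.65, 3.03 and 9.92, each again lowest in ia03. The authors' deposited table for ia03 gave q-values of 0.0230 for nlp-61, 0.0283 for nlp-56 and 0.610 for nlp-70. The gene nlp-119 had 0.356, 2.03 and 1.06, and passed the floor only through the mutants.

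In ju145, nlp-58 had an FPKM of 6.18 against 14.98 in N2 and 8.02 in ia03. That of nlp-66 was 5.12 in N2, 2.49 in ia03 and 1.55 in ju145, while that of nlp-78 was 11.1, 9.08 and 3.41. All 3, picked as lower in ju145, were also below wild-type in ia03, where 52.5% of all measured features were. The 2 comparisons share the wild-type library. The authors' deposited table for ju145 gave q-values of 0.00611 for nlp-58, 0.0171 for nlp-66 and 0.0744 for nlp-78. The stress-linked gene nlp-49, whose peptides act on the receptor SEB-3, had 46.3 in N2, 53.2 in ia03 and 48.7 in ju145.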
